A study of Mus musculus with 2 samples.

Results

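Binding of the transcription factor Tcf1 was examined at 9 genes of the MHC class I antigen presentation pathway: H2-K1, H2-D1 and H2-T23, which encode class I heavy chains, B2m, Tap1, Tap2, Tapbp, Nlrc5 and Irf1. A deposited Tcf1 peak was assigned to a gene when its summit lay in the gene body or within 20 kb of either end (mm9, GENCODE vM1 annotation). This gave 33 of the 22286 deposited peaks, counted once each, since 3 peaks fell in the windows of both Tap1 and Tap2. Of these, 29 were among the 19042 high-confidence peaks of the series, meaning that they reach a fold enrichment of 4 with p under 1e-05 and a q under 0.05.

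MHC class I molecules show peptides from inside the cell to CD8+ T cells, and a naïve CD8+ T cell also carries them itself. A class I molecule is a heavy chain paired with the light chain B2m. Peptides made by the proteasome enter the endoplasmic reticulum through a transporter formed by Tap1 and Tap2, and Tapbp (tapasin) holds empty class I molecules at that transporter. Nlrc5 is a coactivator of class I promoters, recruited through conserved upstream boxes that include an inverted CCAAT box, and Irf1 is an interferon-induced factor that acts on the same promoters. Tcf1, encoded by Tcf7, is a DNA-binding factor of the Tcf/Lef family that acts in T cell development and in naïve and memory CD8+ T cells.

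Tcf1 ChIP-seq, which recovers DNA fragments bound by Tcf1 with an antiserum raised against the whole protein, was performed on sorted splenic GFP+ TCRbeta+ CD62Lhi CD44lo-med CD8+ T cells of mice, in 1 WT library and 1 Tcf1-deficient library. Peaks were called on the WT library with the Tcf1-deficient library as control. The control cells are Tcf1-deficient by their title and Tcf1-/-Lef1-/- by their genotype field. The series' design text describes hCD2-Cre, Rosa26-lsl-GFP mice with wild-type or double floxed Tcf1/Lef1, whereas the study's methods give Cd4-Cre Tcf7 fl/fl mice for the control, so whether it lacked Lef1 is not settled by these sources. Both Cre drivers act in cells of the T lineage, the GFP reporter is shared by both groups in the labels, and the labels give neither the age of the mice nor how many were pooled. As each group is 1 library, nothing could be checked between replicates. The intervals given here cover counting error only, and a fold enrichment compares these libraries rather than the genotypes.

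With duplicates removed, 36938606 fragments remained in the WT library and 27625250 in the Tcf1-deficient one. The pileup of a peak is the number of WT fragments over its summit, and the fold enrichment is the pileup plus 1 over the local control level plus 1. The control level had a genome-wide floor of 5.42 fragments, so that a fold enrichment of 4 took a pileup of at least 25. It was at the floor in 22 of the 29 high-confidence peaks near the 9 genes (75.9%) and in 86.3% of all high-confidence peaks, and the highest level near the 9 genes was 8.69. All 4 CD8+ T cell genes examined as markers (Cd8a, Cd8b1, Cd3e and Cd3d) had a high-confidence peak within 1 kb of an own start site. So did 1 of 6 genes of other cell types (Itgam) and 32.8% of protein-coding genes, while Ms4a1 and Ncr1 had 0 peaks. Binding is not expression, and no RNA was measured in these libraries.

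The sequences of 3 promoters with high-confidence peaks are shown because the strongest peak of the group lay on the first of them and because the 3 differ in the elements they carry. Each run is the 250 bases before the RefSeq start site, found by exact match in NCBIM37 (mm9) and printed in the direction of transcription. Capitals mark a kappaB site (GGGATTCC), an interferon response element (GAAANNGAA), a gamma-activated site (TTCNNNGAA) or an inverted CCAAT box (ATTGG), each searched on both strands. The search on both strands also marks CCAAT, which in the printed direction is the box in its forward form.
H2-K1 promoter (chr17:34137279-34137528, minus strand): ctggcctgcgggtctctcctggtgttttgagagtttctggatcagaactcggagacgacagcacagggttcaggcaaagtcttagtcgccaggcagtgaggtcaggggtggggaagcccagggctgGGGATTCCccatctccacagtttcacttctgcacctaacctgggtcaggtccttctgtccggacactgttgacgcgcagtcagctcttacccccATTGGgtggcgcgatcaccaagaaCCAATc
B2m promoter (chr2:121973173-121973422, plus strand): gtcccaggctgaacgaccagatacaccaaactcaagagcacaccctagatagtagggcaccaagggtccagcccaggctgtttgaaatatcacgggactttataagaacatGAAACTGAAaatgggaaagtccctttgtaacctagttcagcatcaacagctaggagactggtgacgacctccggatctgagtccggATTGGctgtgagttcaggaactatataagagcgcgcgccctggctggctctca
Irf1 promoter (chr11:53583266-53583515, plus strand): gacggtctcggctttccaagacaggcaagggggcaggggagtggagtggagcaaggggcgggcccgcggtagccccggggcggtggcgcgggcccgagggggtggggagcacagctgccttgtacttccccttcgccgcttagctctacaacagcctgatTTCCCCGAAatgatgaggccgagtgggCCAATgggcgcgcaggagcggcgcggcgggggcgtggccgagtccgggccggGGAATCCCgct

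Promoter sequences from RefSeq (GRCm38.p6) were found for 7 of the 9 genes, those other than Tap2 and Nlrc5. The inverted CCAAT box, counted on either strand, stood in all 7, against 33.8% of the 32851 RefSeq promoters searched over the same 250 bases. In the direction of transcription, ATTGG stood in those of H2-K1, H2-D1, B2m and Tapbp. Those of H2-T23, Tap1 and Irf1 held only CCAAT in that direction, which is the forward and not the inverted box. The kappaB site stood in those of H2-K1, H2-D1 and Irf1 (0.889% of all promoters), the interferon response element in those of B2m and H2-T23 (7.13%), the gamma-activated site in that of Irf1 (7.02%) and the Runx core TGTGGTT in that of Tapbp (4.40%). Neither the Tcf/Lef core ATCAAAG (3.21%) nor the ETS core CGGAAGT (4.92%) was found in any of the 7. A match is a description of the letters and does not show that a factor was bound.

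Of the 33 deposited peaks, 29 (87.9%, exact binomial 95% interval 71.8 to 96.6) passed the high-confidence criteria, as did 85.4% of all deposited peaks. All 9 genes had at least 1 high-confidence peak in their window, and 55.4% of 22350 protein-coding genes did. Of the 9 genes, 6 had a high-confidence peak within 1 kb of an own start site (H2-K1, H2-D1, B2m, Tap2, Tapbp and Irf1), against 32.8% of protein-coding genes. A promoter peak under the fold minimum was listed for H2-T23 and Tap1, and Nlrc5 had none at its annotated start sites. The number of high-confidence peaks per gene ran from 1 (Nlrc5) through a median of 3 to 6 (Tapbp), and 17.4% of protein-coding genes had 3 or more. The joined windows covered 443 kb and held 6.55 high-confidence peaks per 100 kb (exact Poisson 95% interval 4.39 to 9.41), which was 9.08 times the density of the chromosomes (6.08 to 13.0) and 5.65 times that of the windows of all protein-coding genes (3.79 to 8.12). A start site of one of the 9 genes was the nearest one for 14 of the 29 peaks, and the others were nearer to the start of another gene.

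**Figure D1:**
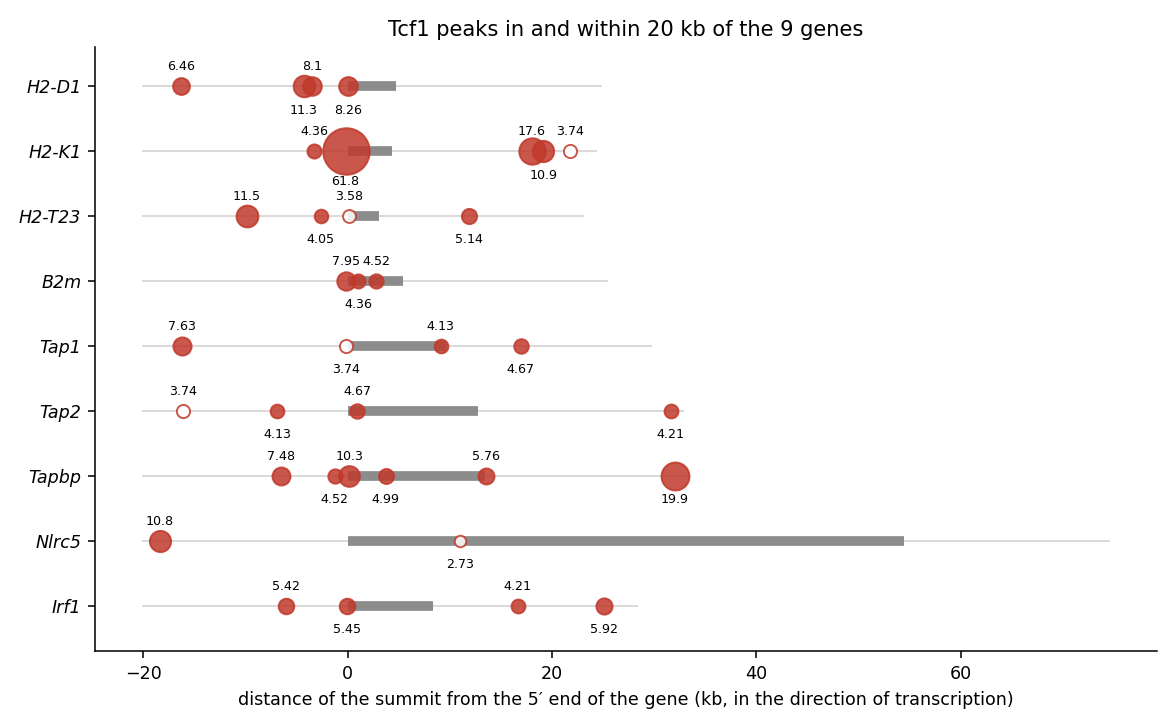
Position of each deposited Tcf1 peak, as the distance in kb of its summit from the 5′ end of the gene; thick bars are gene bodies, thin lines the window of 20 kb on each side, the area of a circle grows with the fold enrichment printed beside it, and open circles are under the fold minimum. The largest circle, at the H2-K1 start, has a fold enrichment of 61.8, and the 2 Tap genes share 3 peaks.

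H2-K1 (ENSMUSG00000061232.8, chromosome 17, 34132962 to 34137278, minus strand), a classical class I heavy chain gene, had the strongest peak of the group. The peak at chr17:34136981-34139254 had a pileup of 515 WT fragments (exact Poisson 95% interval 471 to 561) against a control level of 7.35, a fold enrichment of 61.8 (56.6 to 67.3). Its summit lay 199 bp upstream of the start site, in the first of the promoters printed above, with the kappaB site inside the 100 bp around the summit. The peak was 2274 bp wide, from 297 bp inside the gene to 1.98 kb upstream, which ranked 19 in width and 44 in fold enrichment among the 19042 high-confidence peaks. Among the 7547 high-confidence peaks within 1 kb of any start site it ranked 7 in fold enrichment. Of the other peaks in the H2-K1 window, 1 lay 3.27 kb upstream of the start (pileup 27, fold enrichment 4.36) and 3 lay beyond the 3′ end near the class I pseudogene H2-K2. Those 3 had pileups of 112, 69 and 23 and fold enrichments of 17.6, 10.9 and 3.74, the last under the minimum.

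H2-D1 (ENSMUSG00000073411.4, chromosome 17, 35399675 to 35404444, plus strand), the other classical heavy chain gene, had 4 high-confidence peaks. The promoter peak at chr17:35399512-35400296 had a pileup of 52 (38.8 to 68.2) and a fold enrichment of 8.26 (6.21 to 10.8). Its summit lay 7 bp from the most upstream annotated start and 357 bp upstream of the RefSeq start. A pair of upstream peaks stood higher or at the same level, with pileups of 93 at 4.30 kb (fold enrichment 11.3) and 51 at 3.51 kb (fold enrichment 8.10), both with a Runx core. The fourth, with a pileup of 53 and a fold enrichment of 6.46, lay in an intron of Ddx39b, 16.3 kb upstream, beside the start of SNORD83.

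The promoter peaks of H2-K1 and H2-D1 were alike in sequence and far apart in signal. They were 86.0% identical over 783 aligned bases, and their pileups of 515 and 52 had intervals that did not overlap. The 30 bases around the kappaB site are shown for both because the site and its flanks are shared. The site began 124 bases before the H2-K1 start and 170 bases before the RefSeq start of H2-D1, and the H2-D1 stretch also lies in an exon of a longer annotated transcript.
H2-K1 stretch (chr17:34137384-34137413, minus strand): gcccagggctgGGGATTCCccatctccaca
H2-D1 stretch (chr17:35399858-35399887, plus strand): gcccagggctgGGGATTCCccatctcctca

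Besides H2-K1 itself, 7 regions of the class I region matched its promoter over 503 to 530 aligned bases, at 79.1 to 85.3% identity, each within 0.286 kb of the start of an H2 gene. Of these, 2 held a deposited peak, at H2-D1 (fold enrichment 8.26) and, under the minimum, at H2-Q7 (2.99), and 5 held none (H2-K2, H2-Q4, H2-Q6, H2-Q8 and H2-Q10). A further 3 shorter matches of 233 to 243 bases, at 73.3 to 76.5% identity and 8.36 kb or more from any H2 start, held no peak either. The list holds only regions that passed the peak caller, so signal under its limit at these copies is not known.

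The peak upstream of H2-K1 belonged to another family of copies, which are more alike than the promoters are. The region under the strongest of the peaks near H2-K2 had 6 further copies in the class I region at 93.1 to 95.5% identity, and all 7, that region included, held a high-confidence peak. Of these, 6 lay 3.33 to 4.24 kb upstream of a class I gene or pseudogene (H2-K1, H2-K2, H2-Q6, H2-Q7, H2-Q8 and H2-Q10) and 1 lay 24.4 kb upstream of H2-Q2. Pileups were 27 at the H2-K1 copy, 66 at H2-Q10, 87 at the H2-Q2 copy, 96 at H2-Q8, 112 at H2-K2, 157 at H2-Q6 and 241 at H2-Q7. The H2-K1 copy was the lowest, with a fold enrichment of 4.36 (2.93 to 6.28), and the others ran from 10.4 to 21.9. The control level was at the floor for H2-K1, H2-K2, H2-Q2 and H2-Q10 and above it for H2-Q8 (6.02), H2-Q7 (10) and H2-Q6 (12.7).

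The aligned stretches of 3 copies are shown because they differ in an interferon response element next to the summit. The H2-K1 stretch is 95.3% identical to that of H2-K2 and 92.0% identical to that of H2-Q7 over 150 aligned bases. The element, in capitals and read on the other strand, stood in the stretches of 6 of the 7 copies and not in that of H2-K1. It stands in 7.46% of all high-confidence peaks within 100 bp of the summit, and its part in the pileups was not tested.
H2-K1 upstream copy (chr17:34140476-34140625, minus strand): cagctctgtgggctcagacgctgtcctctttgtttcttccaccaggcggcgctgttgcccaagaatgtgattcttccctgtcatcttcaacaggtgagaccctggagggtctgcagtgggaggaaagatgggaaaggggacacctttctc
H2-K2 upstream copy (chr17:34119196-34119345, minus strand): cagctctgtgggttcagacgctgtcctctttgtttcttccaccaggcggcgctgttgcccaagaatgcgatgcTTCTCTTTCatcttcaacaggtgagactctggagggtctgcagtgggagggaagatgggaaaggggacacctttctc
H2-Q7 upstream copy (chr17:35571944-35572091, plus strand): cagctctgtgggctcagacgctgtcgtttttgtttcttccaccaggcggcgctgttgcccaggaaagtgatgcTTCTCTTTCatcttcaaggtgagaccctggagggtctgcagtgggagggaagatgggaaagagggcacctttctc

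**Figure D2:**
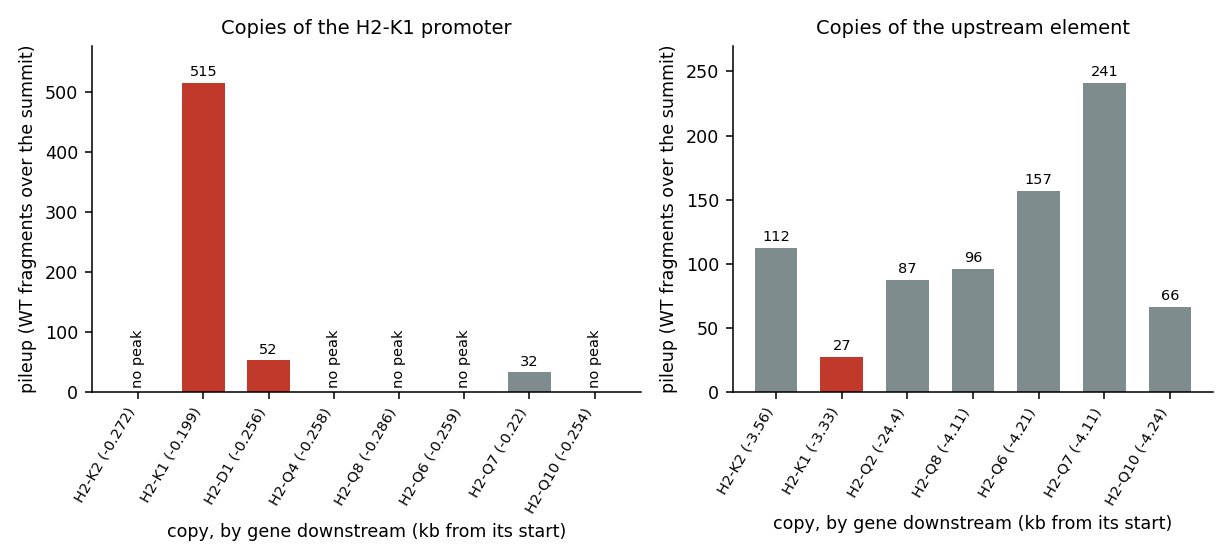
WT fragments over the summit (pileup) at H2-K1 and each full-length copy of its promoter (left) and of the upstream element (right) in the class I region, named by the H2 gene downstream with the distance in kb from its start to the middle of the copy; red bars belong to H2-K1 or H2-D1. Besides H2-K1, 2 of 7 promoter copies held a peak; all 7 regions on the right did, at higher sequence identity.

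Near-identical copies can make reads hard to place, and the peak file does not record how such reads were treated. All stretches of 100 bases in the member peaks were therefore looked up in the whole genome. In 31 of the 33 peaks no stretch occurred anywhere else, including those at the H2-K1 and H2-D1 promoters and the H2-K1 upstream copy. The exceptions were the H2-D1 peak at 4.30 kb and the H2-T23 peak at 2.65 kb upstream, and in neither did the stretch at the summit occur elsewhere. Among the copies outside the 9 genes, such repeats made up 84.6% of the stretches in the H2-Q8 promoter copy and 81.3% in that of H2-Q6, both without a peak, and 11.2% in that of H2-Q7, while those of H2-K2, H2-Q4 and H2-Q10 had none. Of the upstream copies, those of H2-Q7 (6.67%), H2-Q8 (6.18%) and H2-Q2 (1.04%) held some, and the whole peaks held 12.7% at H2-Q7 and 4.83% at H2-Q8. The part of read placement in the differences between copies was not tested.

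H2-T23 (ENSMUSG00000067212.7, chromosome 17, 36166718 to 36169800, minus strand) encodes Qa-1, a nonclassical heavy chain that shows leader peptides of other class I molecules to inhibitory receptors. Its promoter peak at chr17:36169569-36169929 had a pileup of 22 (13.8 to 33.3) and a fold enrichment of 3.58 (2.30 to 5.35), under the minimum but with an interval that included it. The largest fold enrichment in the window, 11.5 (9.07 to 14.5) with a pileup of 73, belonged to chr17:36179450-36180046, whose summit lay 21 bp from the start of the neighbouring nonclassical gene H2-T22. The remaining high-confidence peaks lay 2.65 kb upstream of H2-T23 (pileup 25, fold enrichment 4.05) and 0.443 kb from the start of H2-T24 (pileup 32, fold enrichment 5.14). The H2-T22 promoter peak was 93% identical to that of H2-T10, which had a pileup of 94 and a fold enrichment of 12.4. The stretch of 30 bases around the interferon response element of the H2-T23 promoter, 123 bases before its RefSeq start, is shown for comparison with the upstream copies above, since both hold the same letters; it too lies in an annotated exon.
H2-T23 stretch (chr17:36169751-36169780, minus strand): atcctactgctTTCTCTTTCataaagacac

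B2m (ENSMUSG00000060802.8, chromosome 2, 121973422 to 121978819, plus strand), the light chain gene, had 3 high-confidence peaks, all close to or inside the gene. The promoter peak at chr2:121973030-121973612 had a pileup of 50 (37.1 to 65.9), a fold enrichment of 7.95 (5.94 to 10.4) and a summit 163 bp upstream of the start, within an intron of Patl2. Its interferon response element begins 139 bases before the RefSeq start. The peaks in introns of the gene, 1.05 and 2.82 kb downstream of the start, had pileups of 27 and 28 and fold enrichments of 4.36 and 4.52. The second of these was the only 1 of the 29 high-confidence peaks that had a Tcf/Lef core no more than 100 bp from the summit.

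Tap1 (ENSMUSG00000037321.9, chromosome 17, 34324498 to 34334170, plus strand) and Tap2 (ENSMUSG00000024339.6, chromosome 17, 34340472 to 34353266, plus strand) encode the subunits of the peptide transporter and flank Psmb8, a gene of the immunoproteasome. The Tap1 promoter is shared with Psmb9, another immunoproteasome gene read in the other direction, and its peak at chr17:34324264-34324578 had a pileup of 23 (14.6 to 34.5) and a fold enrichment of 3.74 (2.43 to 5.53), under the minimum. The Tap2 promoter peak at chr17:34341305-34341526 had a pileup of 29 (19.4 to 41.6) and a fold enrichment of 4.67 (3.18 to 6.64), the largest in the Tap2 window. The largest in the Tap1 window, 7.63 (5.67 to 10.1) with a pileup of 48, lay 16.2 kb upstream in intergenic sequence at chr17:34307987-34308473. A peak in a coding exon of Tap1, 1064 bp before the start of Psmb8, had a pileup of 39, the highest control level of the group (8.69) and a fold enrichment of 4.13. The last peak of the Tap2 window, 3.74 kb from the start of the class II gene H2-Ob, had a pileup of 26 and a fold enrichment of 4.21.

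Tapbp (ENSMUSG00000024308.7, chromosome 17, 34052844 to 34066235, plus strand), the tapasin gene, had 6 high-confidence peaks, and 2.99% of protein-coding genes had 6 or more. The largest fold enrichment, 19.9 (16.9 to 23.3) with a pileup of 152 (129 to 178), was at chr17:34084567-34085232, in an intron of Wdr46 and 3.58 kb from the start of B3galt4. A pair of peaks lay within 1 kb of annotated Tapbp starts. That at chr17:34052659-34053190 had a pileup of 71 (55.5 to 89.6) and a fold enrichment of 10.3 (8.04 to 12.9), with a summit in an intron, 163 bp downstream of the most upstream Tapbp start and 109 bp from the start of Zbtb22. That at chr17:34056479-34056688 had a pileup of 31 (21.1 to 44.0) and a fold enrichment of 4.99 (3.44 to 7.01), 137 bp downstream of the RefSeq start, with 2 interferon response elements within 100 bp of the summit. The other peaks stood at the promoters of the neighbours Daxx (pileup 47, fold enrichment 7.48) and Rgl2 (pileup 36, fold enrichment 5.76) and in an intron of Daxx (pileup 28, fold enrichment 4.52).

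Nlrc5 (ENSMUSG00000074151.5, chromosome 8, 96996663 to 97051172, plus strand), the class I coactivator, had 1 high-confidence peak by the annotation used. It lay at chr8:96977766-96978607, 18.4 kb upstream of the annotated start, with a pileup of 68 (52.8 to 86.2), a fold enrichment of 10.8 (8.38 to 13.6) and a Runx core. A peak in an intron at chr8:97007625-97007889 had a pileup of 20 (12.2 to 30.9) and a fold enrichment of 2.73 (1.72 to 4.15), the lowest of the group, and carried a Tcf/Lef core. The annotation types this gene as a lincRNA of 54.5 kb, whereas RefSeq (GRCm38.p6) gives the gene 92.9 kb, a difference of 38.4 kb. If the 3′ ends are the same and the difference is all upstream, the start would be near 96958235, which is inside a peak at chr8:96957966-96958531 with a pileup of 87 and a fold enrichment of 13.7 (11 to 16.9). The summit of that peak is 42 bp from an annotated start of 9330175E14Rik. The longer model would add this peak and 1 other (pileup 50, fold enrichment 7.95), and coordinates of that other build were not used.

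Irf1 (ENSMUSG00000018899.9, chromosome 11, 53583516 to 53591876, plus strand) had 4 high-confidence peaks within a narrow range of pileups. The promoter peak at chr11:53583246-53583976 had a pileup of 34 (23.5 to 47.5), a fold enrichment of 5.45 (3.82 to 7.56) and a summit 105 bp upstream of the start, inside the printed promoter. The largest fold enrichment, 5.92 (4.21 to 8.10) with a pileup of 37, was at chr11:53608452-53609060, in Gm12216. The others had pileups of 37 and 26 and fold enrichments of 5.42 and 4.21, and the 4 intervals overlapped one another.

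**Figure D3:**
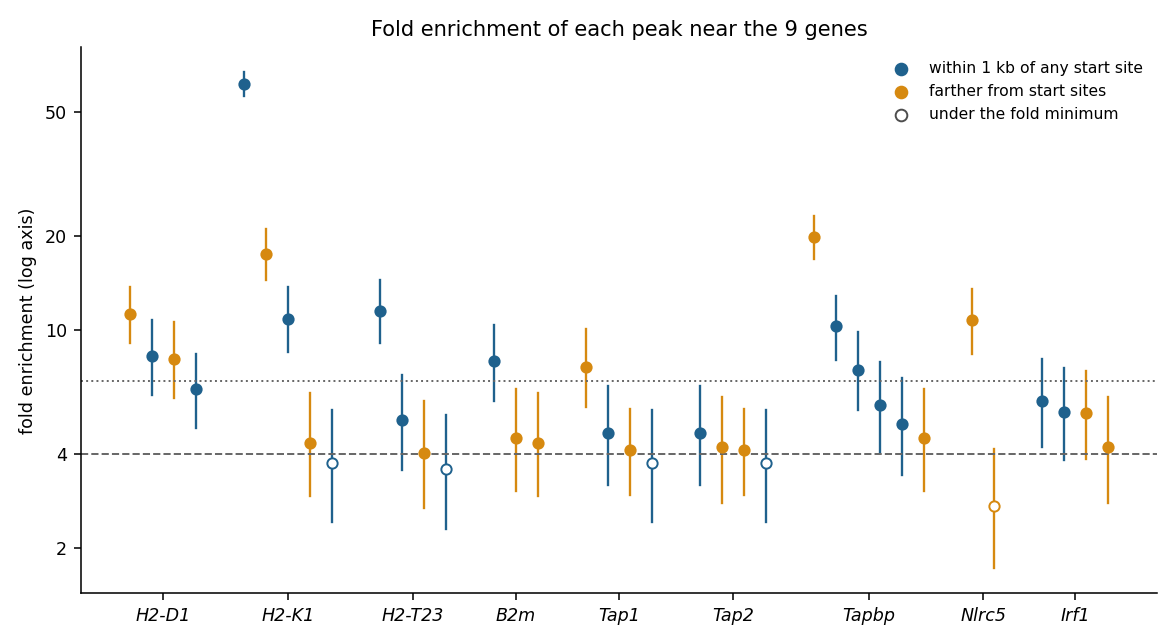
Fold enrichment (log axis) of each peak by gene, with bars for the exact Poisson 95% interval of the pileup at a fixed control level; blue points lie within 1 kb of any annotated start site, orange points farther away, open points under the minimum of 4 (dashed line), and the dotted line is the median of all high-confidence peaks, 6.86. The H2-K1 promoter peak, at 61.8, stands above all others and most of the rest lie between 4 and 12.

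The 29 high-confidence peaks had a median fold enrichment of 5.92 (95% order-statistic interval 4.67 to 8.26), with 6.86 over all high-confidence peaks. The median pileup was 39.0 and the median width 502 bp, with 44.0 and 484 bp over all. A fold enrichment of 10 or more was reached by 8 of the 29 (27.6%; 27.4% over all) and of 20 or more by 1 (3.45%; 7.98% over all). At this depth 9 of the 29 were within 1 Poisson SD of the fold minimum, so their side of it was within counting error. Of the 29 summits, 14 (48.3%, 29.4 to 67.5) lay within 1 kb of any annotated start site, against 39.6% over all. These promoter peaks had a median fold enrichment of 6.97 (5.14 to 10.9) and the 15 distal ones 4.52 (4.21 to 10.8), intervals that overlap, while over all peaks the promoter median was 6.54 and the distal median 7.17. By feature, 13 summits were intergenic, 11 in introns, 4 in exons outside coding sequence and 1 in a coding exon.

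The Tcf/Lef core was present within 100 bp of the summit in 1 of the 29 high-confidence peaks (3.45%, 0.0873 to 17.8), in B2m, and in 1 of the 4 peaks under the minimum, in Nlrc5. Over all high-confidence peaks the share was 10.2%, with 5.13% in promoter peaks and 13.5% in distal ones, and the interval of the 29 includes each of these. Both sites are shown with 60 bases on each side of the summit, with the core in capitals, because they are the only ones found within 100 bp. With whole peaks searched, 1 further high-confidence peak held the core, that of the upstream element near H2-K2, 328 bp from its summit, which made 2 of 29 (6.90%). The whole-peak share over all high-confidence peaks was not computed, so this value cannot be set against the 10.2% above. In B2m the core is on the opposite strand of the gene and in Nlrc5 it sits at the summit.
B2m intron (chr2:121976186-121976306, plus strand): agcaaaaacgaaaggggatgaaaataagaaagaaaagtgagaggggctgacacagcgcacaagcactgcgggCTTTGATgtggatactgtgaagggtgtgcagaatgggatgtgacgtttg
Nlrc5 intron (chr8:97007612-97007732, plus strand): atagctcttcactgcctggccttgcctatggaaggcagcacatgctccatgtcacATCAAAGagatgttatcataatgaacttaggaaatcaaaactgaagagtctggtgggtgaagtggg

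Of the other motifs, the Runx core was found in 7 of the 29 (24.1%, 10.3 to 43.5; 15.5% over all), the interferon response element in 5 (17.2%, 5.85 to 35.8; 7.46% over all) and the gamma-activated site in 3 (10.3%, 2.19 to 27.4; 6.77% over all). The kappaB site was found in 1, at the H2-K1 promoter (3.45%; 0.520% over all), and the ETS core in 2 (6.90%; 6.93% over all). The inverted CCAAT box, counted on either strand and so in either direction, was found in 4 (13.8%; 20.4% over all). For all 7 motifs the interval of the 29 peaks includes the share over all high-confidence peaks. The 5 peaks with the interferon response element were those at the B2m and Tap2 promoters, at the Tapbp start, near H2-T24 and near H2-K2.

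**Figure D4:**
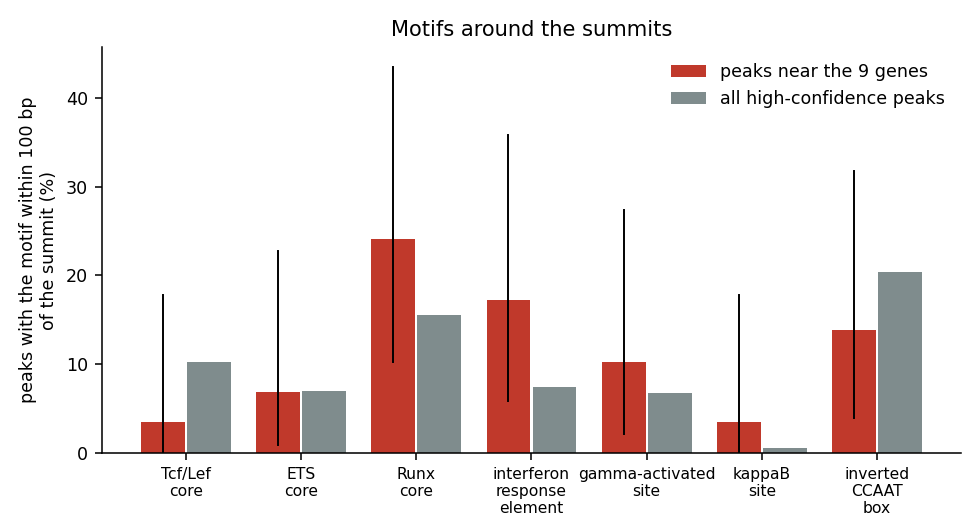
Percent of the 29 high-confidence peaks near the 9 genes (red, with exact binomial 95% intervals) and of all high-confidence peaks (grey) that hold each motif within 100 bp of the summit. All 7 intervals include the grey bar; the Tcf/Lef core is at 3.45% against 10.2%.

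Other genes of the pathway were examined in the same way. Of 26 further class I pathway genes with a gene model, 23 had a high-confidence peak in their window, as did 55.4% of protein-coding genes. Within 1 kb of an own start site, 13 (50%) had one, against 32.8% of protein-coding genes. The windows of the 26 held 3.98 peaks per 100 kb (2.95 to 5.24). The median fold enrichment was 8.73 over 50 peaks, of which 6 were also peaks of the 9 genes. The highest was 40.3, at a peak 9.12 kb upstream of H2-Q10. In that peak 90.3% of the stretches of 100 bases occurred elsewhere in the genome, though the stretch at its summit did not. Regulators among the 13 included Irf2 (promoter fold enrichment 13.7), Rfx5 (9.04), Irf9 (8.26) and Rfxank (4.36), of which Rfx5 and Rfxank are subunits of the complex that binds the conserved boxes of MHC promoters. The chaperone genes were Calr (10.6), Canx (9.12) and Tapbpl (7.17), the proteasome activator gene was Psme2 (8.10), and the nonclassical heavy chain genes were H2-T10 (12.4), H2-T22 (11.5), H2-M3 (9.55) and H2-T24 (5.14). Psmb10, Erap1 and Rfxap had no high-confidence peak in their window.

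Genes of the class II pathway, which shows peptides to CD4+ T cells and is mostly used by antigen-presenting cells, were counted as well, of which 9 of the 11 listed lie on chromosome 17. Of the 11, 9 had a high-confidence peak in their window, as did 55.4% of protein-coding genes. Within 1 kb of an own start site, 3 (27.3%; H2-DMa, H2-Eb1 and H2-Ob) had one, against 32.8% of protein-coding genes. Their density was 3.63 peaks per 100 kb (1.99 to 6.09), the interval of which overlaps that of the 9 class I genes, with 2 of the 14 peaks in the windows of both, and the highest fold enrichment was 15.7. The CD8+ T cell marker genes stood at 15.2 peaks per 100 kb (9.86 to 22.5), with a median fold enrichment of 8.10 (6.23 to 9.98) over 25 peaks and a highest one of 81.2, at the Cd8b1 promoter. These genes are neighbouring pairs with overlapping windows, Cd8a with Cd8b1 and Cd3d with Cd3e, so this density describes few loci. The markers of other cell types stood at 2.2 (0.949 to 4.33), with a median fold enrichment of 9.89 (6.54 to 34.1) over 8 peaks and a highest one of 34.1, near Cd4, and the intervals of both medians overlap.

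**Figure D5:**
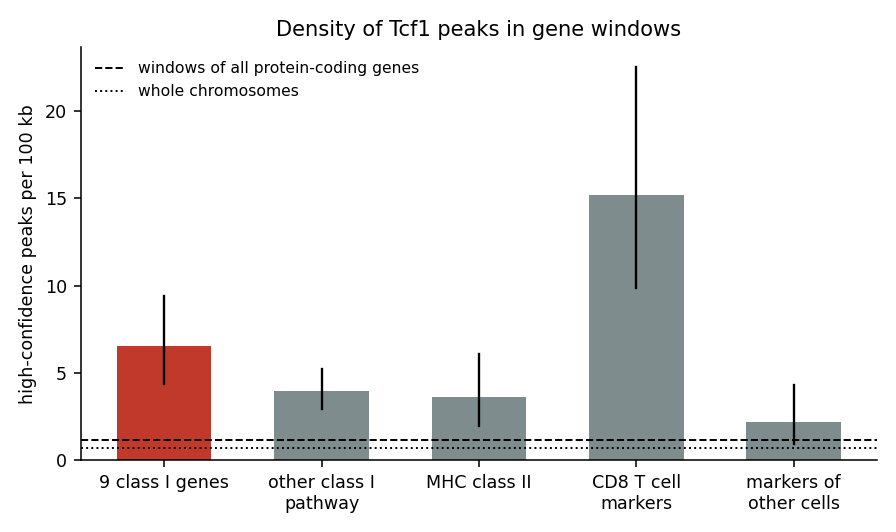
High-confidence Tcf1 peaks per 100 kb in the joined gene windows of each list, with exact Poisson 95% intervals; the dashed line is the density in the windows of all protein-coding genes, 1.16, and the dotted line that of the chromosomes, 0.721. The 9 class I genes, at 6.55, lie between the CD8+ T cell markers and the other lists.

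The limit of 20 kb left peaks on both sides of it. The farthest peak inside each window had a fold enrichment from 3.74 (H2-K1) to 19.9 (Tapbp), and the nearest peak outside, 21.0 to 38.4 kb from the gene, one from 3.43 (H2-K1) to 15 (H2-T23).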

How the data were processed

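Fragments were aligned to mm9 with Bowtie2 2.2.5, and peaks were called with MACS2 2.1.1.20160309 by the authors, on the WT library with the Tcf1-deficient library as control, at a p limit of 1e-05 and with 1 fragment kept per position, per the file headers. The deposited signal (pileup) is the coverage in WT fragments at the summit. The deposited fold enrichment is a ratio with a pseudocount of 1, and the deposited −log10 p-value and −log10 q-value test the pileup against the control level. The control level was computed back as (pileup + 1)/fold enrichment − 1.

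Gene models were those of GENCODE vM1 on NCBIM37. Promoters were 1 kb on each side of a start site of any transcript. Intervals were exact Poisson for counts and exact binomial for shares, at 95%, and no test between groups was possible with 1 library per group. Fold enrichment intervals hold the control level fixed. Motifs were searched within 100 bp of summits with Python 3.11.15 and pysam 0.24.0, and alike regions were found with BLAST 2.17.0. The motif search, the window rule for summits, the search for repeated stretches and the Poisson intervals were tested on simulated data, and the other steps were not. The 9 genes and all gene lists and motifs were chosen with earlier results of these data known. All peaks of the 9 genes were described; for each gene the largest peak and any peak within 1 kb of an own start were given in full, and other genes were named from the lists or as the nearest start. The promoter and element copies were compared after the values had been seen; a copy of at least 400 aligned bases was called full-length. Values of 1 listed gene are not reported here.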

Additional observations from a re-analysis of the deposited data

How the results depend on the processing

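Under 60 recalculations of 6 results (the number, passing share, median fold enrichment, promoter share, Tcf/Lef core share and density ratio of the peaks near the 9 genes), 50 stayed within counting error, or within 1.5 times for the count, and 10 moved. At a fold minimum of 8 the count was 10 in place of 29, the passing share 30.3%, the median fold enrichment 11.1 and the core share 0%. At q under 1e-10 the passing share was 63.6% and the core share 0%. Windows of 50 kb gave 51 peaks and gene bodies alone 7. With the 6-base core TCAAAG the core share was 20.7%, against 26.4% of all high-confidence peaks. The density ratio was 9.08 over the chromosomes and 5.65 over the windows of protein-coding genes. Stricter limits and other window sizes change these values by construction. Leaving out H2-K1 or using the longer Nlrc5 model, chosen after seeing the data, gave 25 and 31 peaks, median fold enrichments of 5.76 and 6.46 and density ratios of 8.70 and 8.93. No paired analysis was possible because there is 1 library per group. Depth limits the peaks nearest the fold minimum, and the list holds no region under the peak caller's limit.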
